A study of Mus musculus with 8 samples.

Results

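Chemokines are small secreted or membrane-anchored proteins that guide migrating cells through G protein-coupled receptors. Epithelia make some of them at rest, and the transcription factor NF-kappaB induces others within a short time of injury or inflammation. In the mammary gland they attract leukocytes to the ducts. Described here are 10 chemokine genes of mammary basal cells, the outer epithelial layer of the ducts: Cxcl13, Cxcl12, Cxcl14, Cxcl16, Cxcl1, Cxcl2, Cxcl5, Ccl2, Ccl20 and Cx3cl1. They were taken by symbol from a table of 54837 genes, and each matched 1 Ensembl identifier. The genes were chosen by their G1 and G0 levels and fold changes in these libraries, so those values are given below as a description and not as a test.

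RNA was sequenced from untreated C57BL/B6 mouse mammary basal cells sorted into G1, the growth phase before DNA synthesis, and G0, in which cells rest and do not cycle. There were 4 libraries of each phase, 1 per phase in each of 4 runs, and the sources used here give no age, sorting markers or number of animals per library. No label tells if runs came from separate animals, so p-values measure only the spread between these libraries, which may be technical. Values are read counts, and levels are CPM, counts scaled to a common library size by TMM, a method that evens out differences in library composition. Libraries held 5868728 to 15014104 counts. The G0 library of run 4 stood apart: 39094 genes had a read there, and 20836 to 26614 genes elsewhere. The basal keratin Krt14 lay between 7627 and 9802 CPM in G1 and between 6651 and 8818 CPM in G0. In bulk RNA, fewer cells of a type and less RNA per cell cannot be told apart.

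RefSeq (GRCm38.p6) held the start region of 7 of the 10 genes, from 250 bases before to 50 bases after the annotated start. The 4 shown are those whose levels differed most, by phase for Cxcl13 and by library for Cxcl1, Cxcl2 and Ccl20. They lie at chr5:95956689-95956988, chr5:90890995-90891294, chr5:90903649-90903948 and chr1:83116516-83116815 in the order printed, all on the plus strand, and capitals mark matches to the NF-kappaB consensus on either strand.
Cxcl13: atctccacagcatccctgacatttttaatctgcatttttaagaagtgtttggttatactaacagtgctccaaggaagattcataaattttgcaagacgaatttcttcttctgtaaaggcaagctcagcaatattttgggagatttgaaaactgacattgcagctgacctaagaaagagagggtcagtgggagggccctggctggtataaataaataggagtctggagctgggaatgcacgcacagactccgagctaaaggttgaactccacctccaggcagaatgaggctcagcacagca
Cxcl1: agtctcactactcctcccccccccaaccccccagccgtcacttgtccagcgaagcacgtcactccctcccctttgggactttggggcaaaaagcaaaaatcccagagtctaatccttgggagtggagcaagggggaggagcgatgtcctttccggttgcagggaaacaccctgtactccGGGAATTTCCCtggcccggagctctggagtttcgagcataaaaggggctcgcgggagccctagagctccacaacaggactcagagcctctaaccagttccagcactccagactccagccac
Cxcl2: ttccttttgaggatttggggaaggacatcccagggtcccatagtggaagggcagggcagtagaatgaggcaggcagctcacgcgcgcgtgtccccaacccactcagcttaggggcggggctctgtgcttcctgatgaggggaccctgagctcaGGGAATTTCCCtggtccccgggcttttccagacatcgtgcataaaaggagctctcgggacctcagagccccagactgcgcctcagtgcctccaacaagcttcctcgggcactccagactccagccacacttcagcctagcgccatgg
Ccl20: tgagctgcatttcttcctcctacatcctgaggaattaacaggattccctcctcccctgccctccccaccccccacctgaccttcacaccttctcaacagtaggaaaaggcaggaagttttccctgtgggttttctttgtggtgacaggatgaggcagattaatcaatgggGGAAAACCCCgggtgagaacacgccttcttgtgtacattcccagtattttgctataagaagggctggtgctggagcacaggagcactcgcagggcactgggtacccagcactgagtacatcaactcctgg
Cxcl1 and Cxcl2 held the same capital letters, made of 2 overlapping matches on opposite strands, which began 71 bases before the start of Cxcl1 and 97 before that of Cxcl2. Ccl20 held 1 match, 80 bases before its start. The regions of Cxcl13, Cxcl12, Cxcl14 and Cx3cl1 held none, and 8.46% of the 32851 mouse start regions of this length held at least 1. TATAAA, searched on both strands, was in the regions of Cxcl13 and Cx3cl1 and in 13.6% of all regions. TGANTCA, also on both strands, was in none of the 7 and in 7.81% of all. A match is a run of letters and not a shown binding site.

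Cxcl13 encodes the ligand of CXCR5, which draws B cells into lymphoid follicles. Of the 9 tested, it was the chemokine with the widest gap between the phases and was higher in G1 than in G0 within each of the 4 runs. G1 libraries of runs 1 to 4 had 3.61, 12.1, 24.5 and 19.9 CPM, from 51, 158, 240 and 133 reads. G0 libraries of the same runs had 0.635, 0.358, 4.24 and 2.68 CPM, from 7, 4, 60 and 15 reads. The lowest G1 value, in run 1, was below the highest G0 value, in run 3, so the groups overlapped when runs were ignored, while no run had its G0 library above its G1 library. Cxcl13 (ENSMUSG00000023078) lies on chromosome 5 of GRCm38 from 95956951 to 95961068, on the plus strand.

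Within a run, the ratio of G1 to G0 for Cxcl13 was 5.69 in run 1 (95% interval 2.57 to 14.9), 33.8 in run 2 (12.96 to 126), 5.78 in run 3 (4.34 to 7.80) and 7.41 in run 4 (4.34 to 13.6). These exact binomial intervals cover counting error only, and the wide one of run 2 came from the 4 reads of its G0 library. The means were 15.0 ± 9.17 CPM in G1 and 1.98 ± 1.83 CPM in G0 (SD, n = 4 each). With the run as a block in edgeR's model, the log2 fold change was 3.05 ± 0.32 (SE), an 8.30-fold difference, and it lay between 2.64 and 3.38 when any 1 run was left out. With the phase alone it was 2.91 ± 0.78.

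**Figure D1:**
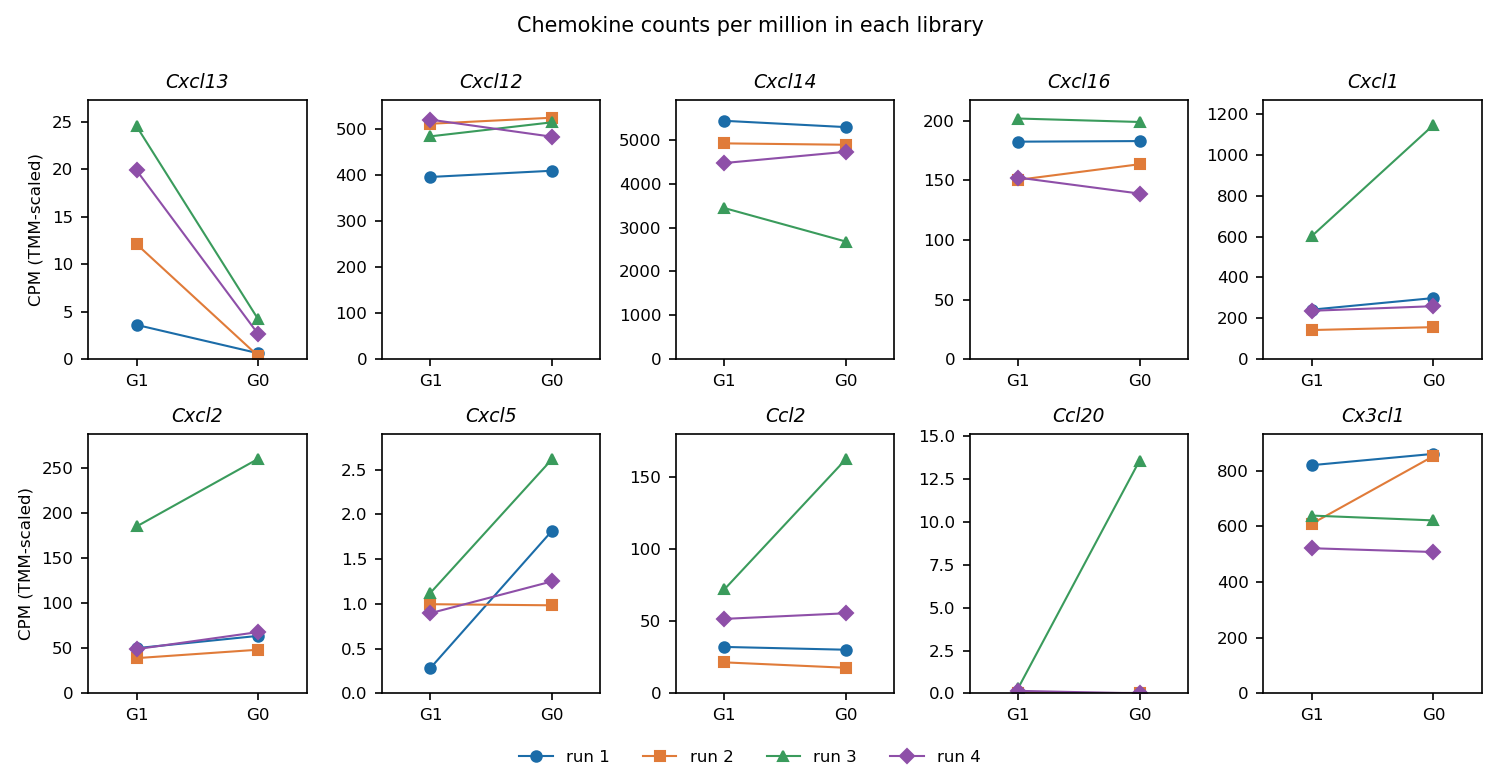
TMM-scaled CPM of the 10 chemokine genes in each library, G1 left of G0, with lines joining the 2 libraries of a run. Every line falls from G1 to G0 for Cxcl13, and the green triangles of run 3 stand above the other runs in both phases for Cxcl1, Cxcl2 and Ccl2.

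Of the 9 chemokine genes that passed the low-count filter, 1 was past an adjusted p of 0.05 in the fit with the run as block, Cxcl13, higher in G1. Of all 15192 genes tested, 0.481% were called higher and 0.764% lower in that fit, 1.24% in all. Nothing is read from this count, because the genes were proposed from the same contrast. With the phase alone, edgeR called 0 of the 9, with Cxcl13 the only one at an unadjusted p under 0.05, and limma-voom called 0. DESeq2 called Cxcl13 without the block, against 0.224% of all genes. With the block DESeq2 called Cxcl13 and Cxcl2, against 1.6% of all genes, and limma-voom called Cxcl13, against 1.3%. Over all genes the phase alone gave edgeR 0 calls with 425 genes at an unadjusted p under 0.05, limma-voom 0 calls and DESeq2 34. The median log2 fold change was -0.12 over the 9 genes and 0.01 over all tested genes in the blocked fit.

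The chemokines made steadily by epithelium and stroma had like levels in G1 and G0. Cxcl12, the ligand of CXCR4 and of the scavenging receptor ACKR3, had 397, 512, 485 and 521 CPM in the G1 libraries of runs 1 to 4. Its G0 libraries had 410, 526, 515 and 484 CPM. The 2 groups covered nearly the same range, and the log2 fold change was -0.02 ± 0.10 with the block. Cxcl14, an abundant chemokine of surface and glandular epithelia, had 5431, 4917, 3444 and 4470 CPM in G1. In G0 it had 5288, 4886, 2681 and 4725 CPM. Run 3 was the lowest in both phases, and the log2 fold change was 0.08 ± 0.10 with the block.

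Cxcl16 and Cx3cl1 encode chemokines that are anchored in the cell membrane and can be shed by proteases. Cxcl16, the ligand of CXCR6, had 182, 150, 202 and 152 CPM in the G1 libraries of runs 1 to 4. Its G0 libraries had 183, 163, 199 and 139 CPM. The groups overlapped almost fully, with a log2 fold change of 0.01 ± 0.11 with the block. In Cxcl16, 16.9% of the 50-base words of its transcripts also occur on the opposite strand of transcripts of Zmynd15, a gene whose exons overlap it, and no source used here states how strand was treated in counting. Cx3cl1, fractalkine, had 820, 610, 639 and 521 CPM in G1. In G0 it had 860, 852, 621 and 508 CPM. Run 2 was the run with a gap between its phases, and the log2 fold change was -0.12 ± 0.11 with the block.

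Cxcl1, Cxcl2 and Cxcl5 encode attractants of neutrophils that act through CXCR2, and they lie close together on chromosome 5, with 129.6 kb between Cxcl5 and Cxcl1 and 10.8 kb between Cxcl1 and Cxcl2. Cxcl13 lies 5051 kb further along the same chromosome. Cxcl1 had 242, 143, 603 and 237 CPM in the G1 libraries of runs 1 to 4. Its G0 libraries had 299, 157, 1145 and 259 CPM. Both libraries of run 3 stood above all others, and the G0 library of that run was the higher of them. G1 was below G0 in each run, by a log2 fold change of -0.38 ± 0.12 with the block.

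Cxcl2 also had its highest values in the G0 and G1 libraries of run 3. G1 libraries of runs 1 to 4 had 50.2, 39.2, 185 and 49.2 CPM, and G0 libraries had 63.9, 48.5, 260 and 68.1 CPM. G1 was again below G0 in each run, with a log2 fold change of -0.40 ± 0.12 with the block. Cxcl1 and Cxcl2 were 2 of the 9 with G1 below G0 in all 4 runs, against 9.44% of tested genes, and Cxcl13 was the 1 with G1 above G0 in all 4, against 11.3%. Of Cxcl2's 50-base words, 5.84% also occur in Cxcl3, and Cxcl1 shares none with another gene. Cxcl5 was near the floor of detection, at 0.283, 0.997, 1.12 and 0.896 CPM in G1 and 1.81, 0.984, 2.61 and 1.25 CPM in G0. Its libraries held 4 to 37 reads, and its groups overlapped. G1 was below G0 in all runs but run 2, and the log2 fold change of Cxcl5 was -1.05 ± 0.56 with the block.

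Ccl2, which draws monocytes through CCR2, had 32.2, 21.5, 72.1 and 51.7 CPM in the G1 libraries of runs 1 to 4. Its G0 libraries had 30.3, 17.8, 162 and 55.6 CPM. The phases differed in sign between runs, with G1 higher in runs 1 and 2 and lower in runs 3 and 4, and the log2 fold change was -0.25 ± 0.20 with the block. Ccl20, the ligand of CCR6, had more than 3 reads in 1 library. The G1 libraries of runs 3 and 4 had 3 and 1 reads and those of runs 1 and 2 had 0. The G0 library of run 3 had 192 reads, or 13.6 CPM, and the other G0 libraries had 0. In run 3 the ratio of G1 to G0 was 0.0226 (95% interval 0.00462 to 0.0670, counting error only). Ccl20 did not pass the low-count filter and was not tested.

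For Cxcl1, Cxcl2 and Ccl2, the direction without the block rested on the G0 library of run 3. With the phase alone their log2 fold changes were -0.60, -0.45 and -0.59, and without that library they were 0.37, 0.43 and 0.37. With the block and without run 3 they were -0.20, -0.38 and 0.08.

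**Figure D2:**
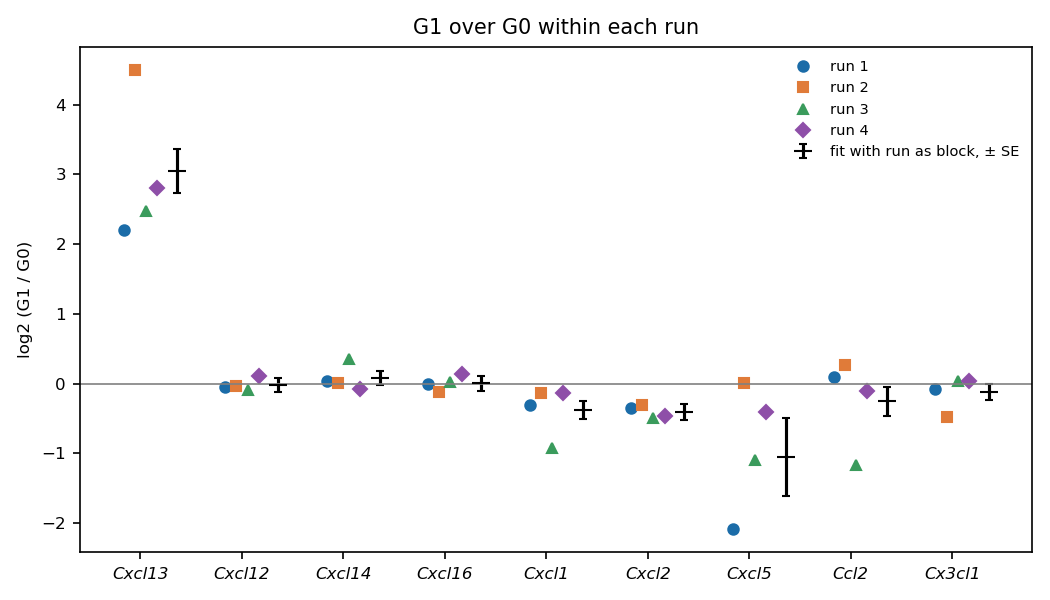
Log2 of G1 over G0 within each run (coloured symbols, prior count of 2) and the log2 fold change of the fit with the run as block (black, ± SE) for the 9 chemokine genes tested. All 4 symbols of Cxcl13 lie between 2.209 and 4.497, and all 4 of Cxcl1 and of Cxcl2 lie below 0.

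Levels were compared between genes as CPM per kilobase of exon, averaged over the 8 libraries. Cxcl14 was the highest at 2452 ± 519 (SD, n = 8), higher than 99.9% of tested genes, and its range did not overlap that of the next gene. Cxcl1 at 206 ± 181 and Cx3cl1 at 173 ± 36.8 overlapped each other and lay above Cxcl12 at 58.9 ± 6.20, whose range Cx3cl1 did not reach. Per kilobase of the longest transcript, Cxcl12 was at 85.5 (70.5 to 93.4 over the libraries) and overlapped Cxcl1 (76.3 to 612), and Cx3cl1 (153 to 260) still lay above it. Cxcl12, Cxcl16 at 56.7 ± 7.77, Ccl2 at 48.7 ± 41.3 and Cxcl2 at 46.2 ± 39.4 each overlapped the next in order. Cxcl13 came eighth, at 13.1 ± 7.97 CPM per kilobase in G1 and 1.72 ± 1.59 in G0 (SD, n = 4 each), and its range overlapped those of Cxcl2 and Ccl20. Ccl20 at 1.23 ± 3.36 owed its mean to 1 library, and Cxcl5 at 0.669 ± 0.374 was the lowest.

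**Figure D3:**
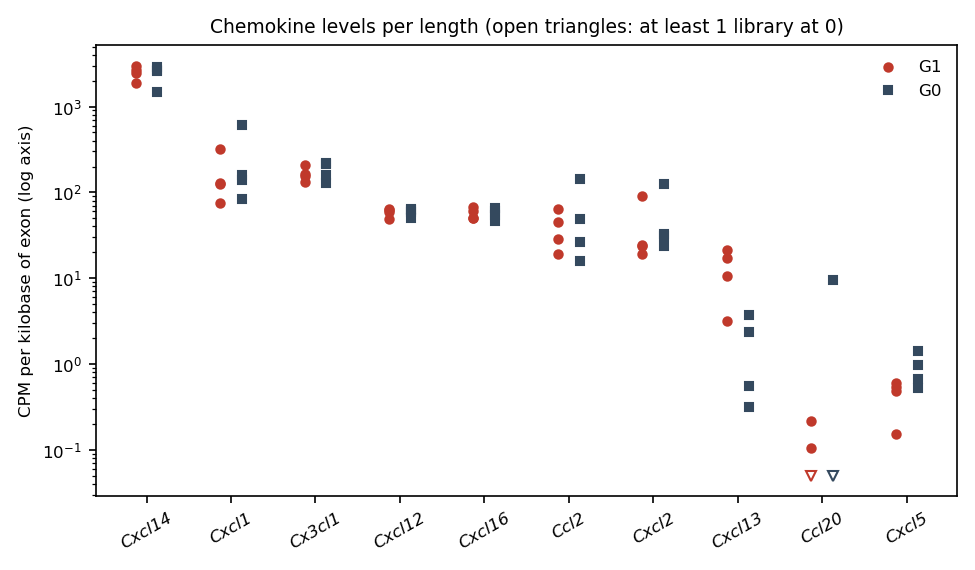
CPM per kilobase of exon on a log axis for the 10 chemokine genes in order of their mean over 8 libraries, with each G1 library (red circles) left of each G0 library (dark squares). Cxcl14 stands alone at the top, and Cxcl13 spans the widest range of the genes with reads in every library.

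Differences between runs do not use the contrast of the phases, so they were tested. The genes were also chosen by their levels, which can affect how readily a gene passes. The share of all genes is therefore only a rough comparison. The question was whether a gene's level differed between runs by more than between the libraries of a run once the phase was taken into account (edgeR's quasi-likelihood F test of 3 run terms, 2 libraries per run, Benjamini-Hochberg adjusted over all genes). Of the 9 chemokine genes tested, 6 passed, against 35.6% of all genes. These were Cxcl2 (adjusted p = 3.44e-11), Cxcl1 (adjusted p = 4.48e-10), Ccl2 (adjusted p = 8.91e-05), Cxcl13 (adjusted p = 9.83e-05), Cxcl14 (adjusted p = 0.000446) and Cx3cl1 (adjusted p = 0.00560), all from edgeR. Cxcl16, Cxcl12 and Cxcl5 did not pass (edgeR adjusted p = 0.0673, 0.156 and 0.655).

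Cxcl1, Cxcl2 and Ccl2 were highest in run 3. Averaged over its G1 and G0 libraries, Cxcl1 in run 3 was at 874 CPM, 3.92 times the mean of the other libraries, Cxcl2 at 223 CPM, 4.19 times, and Ccl2 at 117 CPM, 3.36 times. Cxcl14 went the other way, with run averages of 5360, 4901, 3063 and 4597 CPM in runs 1 to 4. Both libraries of run 3 lay above the other 6 for Cxcl1, Cxcl2, Ccl2 and Cxcl16, 4 of the 9 tested, against 16.7% of all tested genes. Cxcl13 differed between runs on another scale, with run averages of 2.12, 6.24, 14.4 and 11.3 CPM in runs 1 to 4. Cx3cl1 had 840, 731, 630 and 515 CPM.

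Without run 3, Cxcl2 and Cxcl14 no longer passed this test (edgeR adjusted p = 0.217 and 0.426), and Cx3cl1 did not pass without run 1 or run 4 (edgeR adjusted p = 0.0792 and 0.0729). The run test of Cxcl13 did not pass in the model without the phase (edgeR adjusted p = 0.704).

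**Figure D4:**
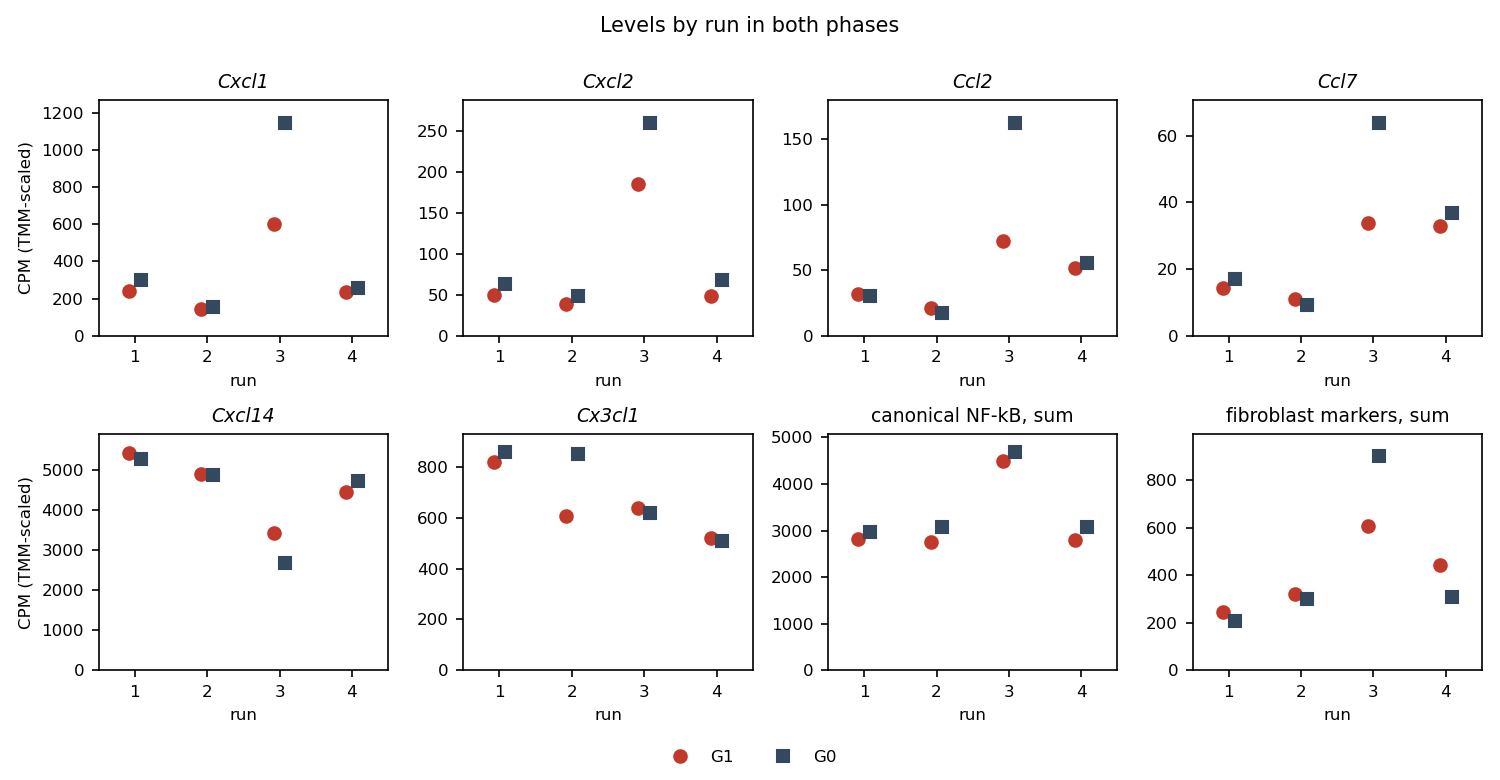
TMM-scaled CPM in each run, G1 (red circles) left of G0 (dark squares), for 6 chemokine genes and for the summed level of the canonical NF-kappaB and fibroblast marker lists. Run 3 is the highest run for Cxcl1, Cxcl2 and Ccl2 and for both sums, and the lowest for Cxcl14. The canonical NF-kappaB sum is high there through Nfkbia alone.

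Genes of the NF-kappaB pathway were measured beside the chemokines. Of 16 canonical NF-kappaB genes, all tested, 0 were called between the phases by edgeR with the block, 2 at an unadjusted p under 0.05, and 14 had a negative log2 fold change, with a median of -0.11. Between runs 9 of the 16 passed, against the 35.6% above. Of these 9, 3 were highest in run 3 (33.3%, against 44.0% of all genes that passed) and 5 were lowest there (55.6%, against 38.2%). Nfkbia, the inhibitor that NF-kappaB itself induces, had 1036, 1009, 2772 and 1137 CPM in the G1 libraries of runs 1 to 4. Its G0 libraries had 1116, 1148, 2815 and 1212 CPM. Both libraries of run 3 stood above all others (edgeR adjusted p between runs = 7.03e-09), as they did for the inhibitor Nfkbib (edgeR adjusted p = 8.33e-06) and for Tnfaip3, a brake on the pathway (edgeR adjusted p = 0.00382). The 5 that were lowest in run 3 were the kinase subunits Ikbkb, Chuk and Ikbkg, with the inhibitor Nfkbie and the adaptor Traf2 (edgeR adjusted p between runs = 0.00656, 0.00956, 0.0302, 0.00401 and 0.0287). Without Nfkbia the other 15 genes summed to 1774, 1750, 1717 and 1653 CPM in the G1 libraries of runs 1 to 4 and 1852, 1930, 1870 and 1873 CPM in the G0 libraries, so run 3 was not the highest in either phase. The part of NF-kappaB in the chemokine levels was not tested.

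Among the NF-kappaB genes with the smallest p between phases, Nfkbiz had a log2 fold change of -0.36 ± 0.13 and Nfkb1 of -0.27 ± 0.12, and neither passed. Of 12 genes of the non-canonical branch, which lymphotoxin and RANKL use, 7 could be tested and 0 were called between the phases by edgeR with the block, 0 of them at an unadjusted p under 0.05. Between runs 4 of the 7 passed, against 35.6% of all genes, and 1 of these was highest in run 3. The sum of the 12 was highest in run 3 in both phases, at 2245 CPM in G1 and 2360 CPM in G0. In the other runs it was 1448 to 1566 CPM in G1 and 1505 to 1700 CPM in G0. Only 1 of the 7 tested genes had its highest run average in run 3, and 5 of the 12 averaged under 1 CPM. The sum is thus no measure of the branch as a whole. Ltbr, the lymphotoxin receptor, had 140, 138, 164 and 138 CPM in G1 and 152, 187, 134 and 138 CPM in G0. Tnfrsf11a, which encodes RANK, had a log2 fold change of 0.19 ± 0.13, and Map3k14, the kinase NIK, of -0.21 ± 0.15.

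Of 28 further chemokine ligands, 9 could be tested and 1 was called between the phases with the block, against 0.764% of all genes called lower. Cxcl9, an interferon-induced attractant of T cells, was lower in G1 with the block. It had 0.638, 4.29, 0.511 and 11.7 CPM in the G1 libraries of runs 1 to 4 and 7.80, 7.78, 4.45 and 23.9 CPM in the G0 libraries. G1 was lower in every run, though the groups overlapped, with a log2 fold change of -1.82 ± 0.40 (edgeR with block, adjusted p = 0.0487). The call of Cxcl9 was lost without run 3 (adjusted p = 0.0545) and with RLE size factors (adjusted p = 0.0528), both in edgeR with the block. Cxcl10, its neighbour in function, had -0.62 ± 0.20 (adjusted p = 0.162), Ccl7, a monocyte attractant, -0.30 ± 0.17 and Ccl4 -0.98 ± 0.60. Cxcl9, Cxcl10 and Ccl4 had their highest average in run 4, not in run 3 (edgeR adjusted p between runs = 0.00238, 1.06e-10 and 0.000163). Like Ccl2, Ccl7 differed between runs (edgeR adjusted p = 3.03e-07), at 14.3, 11.04, 33.9 and 32.9 CPM in G1 and 17.1, 9.31, 63.9 and 36.8 CPM in G0. The other 19 ligands had too few reads.

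Signalling receptors for these ligands had few reads. Of 18 signalling receptors 1 could be tested, Cxcr4, the receptor of CXCL12, at 2.76, 2.99, 5.92 and 1.79 CPM in G1 and 4.08, 3.49, 8.41 and 2.68 CPM in G0, and it did not pass (-0.46 ± 0.31). Cxcr5, the receptor of CXCL13, had 9, 7, 3 and 0 reads in the G1 libraries of runs 1 to 4 and 9, 4, 8 and 21 in the G0 libraries. The 21 reads were in the G0 library of run 4, which stood apart in the number of genes with a read. Cxcr5 did not pass the filter. Of 6 genes in the list of atypical receptors, 5 could be tested and 1 was called, lower in G1, against 0.764% of all genes. Ackr1, a chemokine-binding protein of red cells and venules, had 0.213, 0.230, 2.14 and 8.07 CPM in G1 and 0.998, 4.03, 22.0 and 13.8 CPM in G0. It was lower in G1 in every run, by -2.37 ± 0.45 (edgeR with block, adjusted p = 0.0162). Ackr3, which takes up CXCL12, was the most abundant, at 154, 198, 194 and 160 CPM in G1 and 148, 207, 189 and 129 CPM in G0, with 0.08 ± 0.11. Ackr4, which takes up homeostatic CC chemokines, had 0.42 ± 0.15 (adjusted p = 0.221).

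Of the other pathway lists, 0 genes were called by edgeR between the phases with the block. They held 10 tested proteases and matrix anchors, 20 cytokines and receptors and 8 regulators of mRNA decay, with 0, 2 and 2 genes at an unadjusted p under 0.05 and medians of -0.08, -0.09 and -0.08. Adam10, a protease that sheds CXCL16 and CX3CL1, had 0.04 ± 0.13 and Adam17, which sheds CX3CL1, -0.14 ± 0.14. Il6 had 5.10, 6.06, 17.9 and 20.02 CPM in G1 and 3.72, 6.53, 70.5 and 41.8 CPM in G0, and was high in runs 3 and 4 in both phases. Its log2 fold change was -0.82 ± 0.38 (edgeR with block, adjusted p = 0.464, but 0.000349 without run 1). Zfp36, whose protein speeds the decay of chemokine mRNAs, had -0.38 ± 0.11 (adjusted p = 0.0843). Over all 8 pathway lists, 76 genes were tested, 0 were called higher and 2 lower with the block, against 0.481% and 0.764% of all genes, and 44 of the 76 passed between runs, against 35.6% of all genes. With the phase alone edgeR called 0 of the 76, with 1 at an unadjusted p under 0.05, and DESeq2 and limma-voom called 0.

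Markers of other cells were summed in each library. Counts of markers are set against the 0.481% of all genes called higher and 0.764% called lower with the block. Of 10 endothelial markers 0 were called higher and 9 lower in G1 with the block, and their sum was 25.5 to 112 CPM in G1 and 156 to 273 CPM in G0. With the phase alone edgeR called 0 of the 10, with 9 at an unadjusted p under 0.05, and DESeq2 called 6, against 0.224% of all genes. The sums did not overlap, and Ackr1 and Cxcl9 moved the same way while Cxcl13 moved the other way. Basal markers summed to 29529 to 33552 CPM in G1 and 21472 to 28344 CPM in G0, also without overlap, with 1 of 8 called, Acta2, higher. Of 8 fibroblast markers 0 were called higher and 4 lower, and 7 had a negative and 1 a positive log2 fold change with the block. The fibroblast sum was 243 to 609 CPM in G1 and 208 to 904 CPM in G0, with run 3 highest in both phases. That sum was higher in G1 in runs 1, 2 and 4 and lower in G1 in run 3. Myeloid markers summed to 39.6 to 74.1 CPM in G1 and 39.7 to 105 CPM in G0, with 0 of 4 tested called by edgeR with the block and 1 at an unadjusted p under 0.05. Of 8 hormone-sensing luminal markers 1 was called, Ly6a, lower in G1 (-0.94 ± 0.17, adjusted p = 0.00487), and of 3 tested adipocyte markers 1, Lpl, lower (-1.21 ± 0.20, adjusted p = 0.00158), both by edgeR with the block. Among the 8 hormone-sensing markers, 6 had a negative and 2 a positive log2 fold change in that fit, with 3 at an unadjusted p under 0.05. The hormone-sensing sum was lower in G1 in every run, though it overlapped between the phases when runs were ignored. Of 7 luminal progenitor and 5 pericyte markers tested edgeR called 0 with the block, with 1 and 0 at an unadjusted p under 0.05. All 7 luminal progenitor markers had a positive log2 fold change with the block. In every run the luminal progenitor sum was higher in G1 and the adipocyte sum lower in G1. Both overlapped between the phases when runs were ignored. The adipocyte markers that passed the filter were Lpl, Fabp4 and Lep, and 3 of the 6 listed averaged under 1 CPM. The part of these cells in the chemokine levels was not tested.

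Lymph node tissue, where stromal cells make CXCL13, was looked for by its own markers. Of 8 markers of lymph node stroma 4 could be tested and 0 were called by edgeR with the block, 1 of them at an unadjusted p under 0.05. Of these 4, 2 had a positive and 2 a negative log2 fold change with the block, from -0.27 to 0.65 with a median of 0.01. The summed level of the 8 was 149 to 232 CPM in G1 and 125 to 330 CPM in G0, most of it from Clu. This sum was highest in run 3 in both phases, as Cxcl13 was. Coch, which was higher in G1 in each run as Cxcl13 was, had 11.7, 33.8, 19.0 and 22.9 CPM in the G1 libraries of runs 1 to 4 and 7.53, 26.9, 13.8 and 9.11 CPM in the G0 libraries (0.65 ± 0.18, edgeR with block, adjusted p = 0.0876). Cr2, a complement receptor of B cells and follicular dendritic cells, had 12, 2, 29 and 6 reads in G1 and 0, 0, 2 and 6 reads in G0, so its CPM was also higher in G1 in 3 of 4 runs. Its part and that of lymph node tissue in the level of Cxcl13 were not tested. Cr2, Fcer2a, Madcam1 and Grem1 stayed under 3 CPM in every library, and Grem1 had 0 reads in all 4 G1 libraries. Lymphocyte markers summed to 0.537 to 5.53 CPM in G1 and 0 to 22.0 CPM in G0. The G1 sum was the higher in runs 1 and 2 and the lower in runs 3 and 4.

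**Figure D5:**
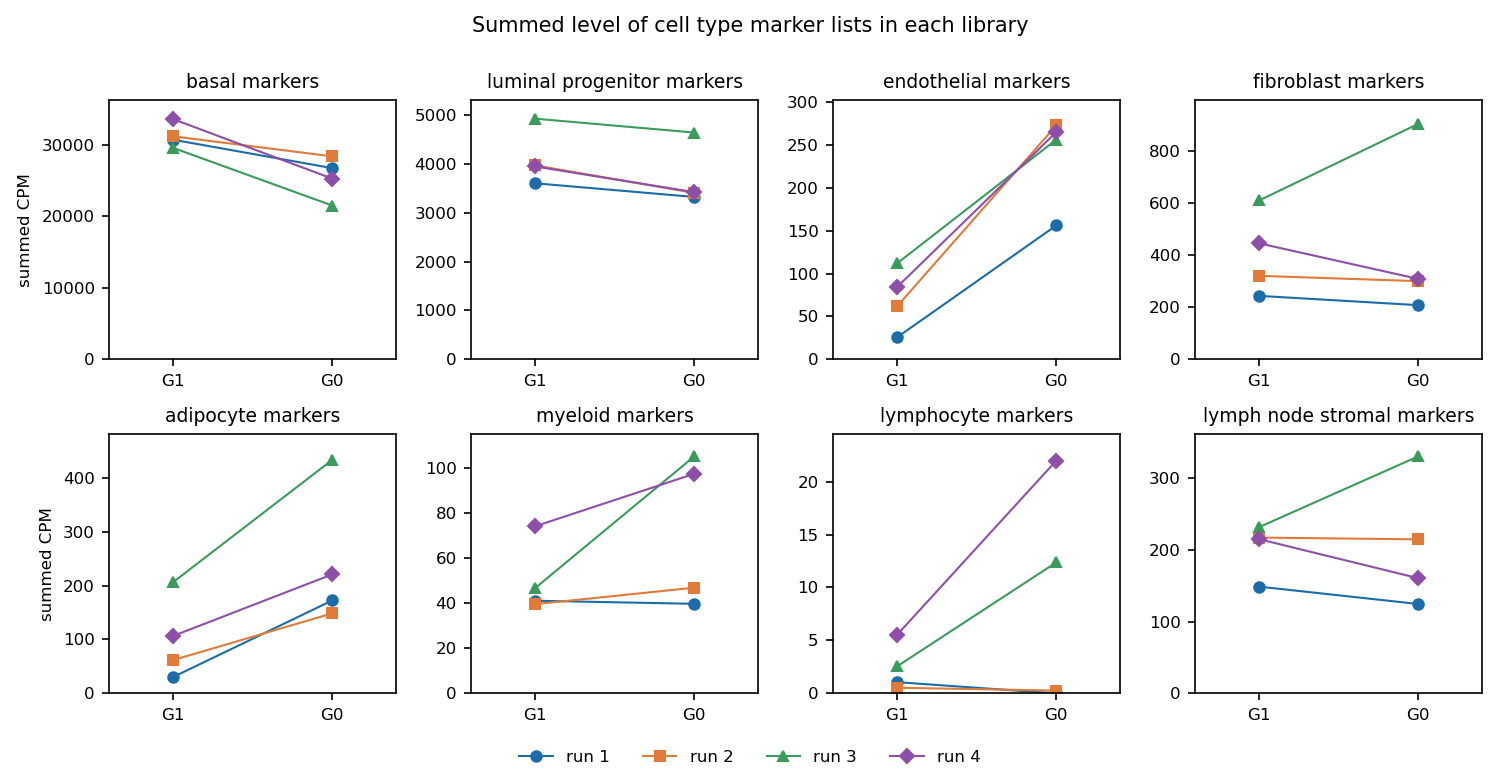
Summed CPM of 8 marker lists in each library, G1 left of G0, with lines joining the libraries of a run. Endothelial and adipocyte sums are lower in G1, and basal and luminal progenitor sums higher in G1, in every run. In the adipocyte list 3 of the 6 markers average under 1 CPM. Fibroblast, adipocyte, luminal progenitor and lymph node stromal sums are highest in run 3 in both phases.

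Among 10045 genes averaging at least 3 in log2 CPM, those whose log2 CPM followed that of Cxcl13 most closely over the 8 libraries were Mxd3 (Pearson r = 0.97), Dhrs1 (0.93), Pcbd1 (0.91), Atp6v1g1 (0.91) and Cth (0.91). The libraries share 4 runs and 2 phases, so these values describe the pattern and carry no test. Mxd3, a repressor of the MYC network, had 21.8, 23.6, 31.5 and 29.0 CPM in the G1 libraries of runs 1 to 4 and 17.7, 14.4, 20.8 and 21.3 CPM in the G0 libraries. It was higher in G1 in each run, as were Dhrs1, Pcbd1 and Cth, with Atp6v1g1 higher in 3 of 4. This shared direction largely follows from picking genes that tracked Cxcl13, which was higher in G1 in each run. The log2 fold changes of these genes, 0.27 to 0.59 with the block, were well below that of Cxcl13, and none passed.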

How the data were processed

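RNA from 8 libraries, G1 and G0 of 4 runs, was measured as the deposited raw read counts per gene. Per the submitters' processing notes the reads were handled with Trimmomatic 0.35 and STAR 2.5.2a on mm10, and neither the program used for counting nor how it treated strand is given in the sources used here, nor is a gene annotation. Total counts per library ran from 5868728 to 15014104, which limits the precision of genes with few reads.

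Genes passing edgeR's low-count filter (15192) were fitted with edgeR 4.0.16 (quasi-likelihood, TMM, Benjamini-Hochberg threshold 0.05) under R 4.3.3, with the phase alone and with the run as a block. The run numbers paired the libraries: deviations from the group means correlated at 0.668, 0.47, 0.638 and 0.437 within runs 1 to 4, and at most at 0.0971 between different runs. The test between runs compared 3 run terms in the model with phase. DESeq2 1.42.0 and limma 3.58.1 were alternatives, as were RLE size factors, other count filters and leaving out libraries. Libraries of a phase differed by a chi-square of 24.1 to 114.7 per degree of freedom, so none was counted as a duplicate.

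The members and lists were chosen with earlier results of these data known. The rule for named genes took, from each list, the 4 tested genes with the smallest p in the blocked fit, any called gene, and the 5 genes most like Cxcl13. The choice among them, and other genes named, such as Nfkbia, Ltbr, Ackr3, Adam10, Cxcr5, Krt14 and Cr2, was made after their values were seen.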

Additional observations from a re-analysis of the deposited data

Results flagged for a closer look

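In 5 of the 50 groups of 4 libraries checked, 1 library lay further from the others than Dixon's critical value for 4 values allows. Chance flags about 1 in 20 groups if these are independent and their values normally distributed. The 50 groups came from 25 genes and share runs, so that rate is only a rough guide here. Of the 5 flagged groups, 4 were chemokines in run 3. Cxcl2 was at 185 CPM in the G1 library of run 3, against 39.2 to 50.2 CPM in the other G1 libraries. It was at 260 CPM in the G0 library of run 3, against 48.5 to 68.1 CPM in the other G0 libraries. Cxcl1 was at 1145 CPM in the G0 library of run 3, against 157 to 299 CPM in the other G0 libraries. Ccl20 was at 13.6 CPM in the G0 library of run 3 and at 0 in the other G0 libraries. Ccl4, a chemokine that attracts macrophages and T cells, was at 10.6 CPM in the G1 library of run 4, against 0.153 to 1.84 CPM in the other G1 libraries.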

How the results depend on the processing

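The count of genes called between G1 and G0 was 0 with the phase alone in edgeR with its low-count filter, and depended on the model. It was 87 with no low-count filter and 34 in DESeq2, both with the phase alone, and 189 with the replicate block. With the block it was 274, 153, 217 and 97 without runs 1, 2, 3 and 4, 197 with RLE size factors, 145 with at least 10 counts in all 8 libraries, 233 in DESeq2 and 197 in limma-voom. Of the chemokine members 0 were called with the phase alone in filtered edgeR fits and in limma-voom. With the phase alone 1, Cxcl13, was called in edgeR with no filter and in DESeq2. With the block 1, Cxcl13, was called in edgeR, with any 1 run left out (1 to 1), with RLE size factors and in limma-voom. DESeq2 with the block called 2, the other being Cxcl2. With the block and at least 10 counts in all 8 libraries 0 of 7 were called, and Cxcl13 was not among the genes tested. Of the other pathway genes 0 were called with the phase alone in filtered edgeR fits. With the phase alone and no filter 1 was called, Il33, and with the replicate block 2. With the block they were 1 to 4 when a run was left out, 1 with RLE size factors, 3 in DESeq2, 4 in limma-voom and 0 of 67 with at least 10 counts in all 8 libraries, where neither Ackr1 nor Cxcl9 was tested. The 4 blocked alternatives in RLE, filter, DESeq2 and limma-voom were chosen after seeing the data. Between runs 5411 genes were called, 2231 to 5379 when a run was left out, with the lowest value without run 3, and 4417 to 5424 when 1 library was left out, and 4 to 7 members were called. Of 194 alternative fold changes of the members 181 kept their value within the replicate spread and 13 moved. A value within that spread could still change sign against the edgeR fit with the phase alone. Signs changed in some alternatives for every tested member but Cxcl13 and Cxcl5. The most were 8 of 22 for Cxcl16 (-0.082 to 0.088) and 5 of 22 for Cxcl12 (-0.078 to 0.07). Of 20 alternative levels per kilobase 19 did so and 1 moved, Cxcl12 at 85.5 with the longest transcript. Few reads limit Cxcl5, Ccl20 and the G0 values of Cxcl13.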
